A study of Homo sapiens with 4 samples.

Results

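PABPC4 peaks in 5′ untranslated regions (5′ UTRs) were taken from the list of PABPC4 binding peaks in MDA-MB-231 cells. Each listed position was counted once. A peak was a member when its centre lay, on the same strand, in a 5′ UTR of the GENCODE 44 annotation and in no 3′ UTR or coding sequence (CDS). The rule gave 270 of 63507 PABPC4 peaks, or 0.425%, in 236 genes. The rule used position and strand only, and neither peak height nor base composition. Base composition still differs between annotation classes, and the comparisons below were not adjusted for it. MDA-MB-231 is an established human breast cancer line with mesenchymal features and without oestrogen or progesterone receptor. The series held 2 samples precipitated with anti-PABPC4 antibody and 2 with anti-HNRNPC antibody, all cross-linked with 400 mJ of ultraviolet light per square centimetre at 254 nm, and no control precipitation was analysed here. Both samples of a protein had been pooled into 1 list before peaks were called, and no replicate spread could be had for any value. Peak height counts the unique tags of both samples at the highest point of the peak, not scaled to depth or to the level of the mRNA. The markers of the line were as the label has it. VIM, the mesenchymal filament vimentin, had 3 PABPC4 peaks with the tallest at 10197 tags, while ESR1, the oestrogen receptor, had 2 with the tallest at 7 tags and PGR had 0.

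PABPC4 is a cytoplasmic poly(A)-binding protein that also enters the nucleus. Such proteins bind runs of adenine with RNA recognition motifs, chiefly in the poly(A) tail, where they take part in translation and in control of mRNA decay. A few mRNAs carry adenine-rich sequence in the 5′ UTR instead. The best known is the mRNA of PABPC1, the major poly(A)-binding protein, whose A-rich 5′ UTR element is bound by its own product and lowers its translation. In PAPERCLIP, the method used for PABPC4, reverse transcription starts at adenines of the RNA pulled down with the protein, so tags lie just upstream of those adenines and mostly mark mRNA 3′ ends. A peak in a 5′ UTR is therefore read here together with the bases that follow it.

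An A-rich stretch was defined as 6 A in a row or 7 A within 10 nt, looked for in the 50 nt of genome that follow the 3′ end of the peak. The sequences below are the RNA strand of hg38, 5′ to 3′, in DNA letters, and capitals mark the bases of all windows that meet this definition, so a capital stretch can end in other bases. The first set shows peaks with a long A-rich stretch directly behind or close to the peak. PABPC4, STAG2 and ELK3 were named by fixed rules on height, A content and number of peaks, and AMD1, HSD17B11, BIRC3 and HES1 were chosen after their values were seen, because they are tall and end at the stretch. The windows are chr1:39576656-39576685 (minus strand) for PABPC4, chr6:110874975-110875004 (plus) for AMD1, chr4:87391086-87391115 (minus) for HSD17B11, chr11:102322778-102322807 (plus) for BIRC3, chr3:194136358-194136387 (plus) for HES1, chr12:96194526-96194555 (plus) for ELK3 and chrX:123960602-123960631 (plus) for STAG2.
PABPC4: GAAAAAAAAAAAGGAAAAGAAAAAACGAAT
AMD1: CAAAAAAAAAAAGGAACctgaactttagta
HSD17B11: TAAAAAAAAAAAAAAACACACcaaacgctc
BIRC3: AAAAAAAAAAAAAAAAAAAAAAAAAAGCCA
HES1: ATAAAAAAAAAAAAAAAAGGAAAATgccag
ELK3: ctcacacacaccagagGGGAAAAAAAAAGA
STAG2: CAAAAAAAAAAAAAAAAAAAAAAAAAAAAA

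The second set shows tall peaks with no A-rich stretch behind them on the genome, with the spliced mRNA beside it where the next exon brings one. RBMX was followed on the genome by chrX:136880567-136880596 (minus), and FAM32A by chr19:16185482-16185511 (plus). The spliced FAM32A window starts 21 nt and the spliced TOP2A window 16 nt after the peak, and both hold coding sequence. SOX4 (chr6:21594143-21594172, plus) and NSD2 (chr4:1974763-1974792, plus) had no stretch behind the peak in either form.
RBMX, genome: gtacgtgtctcctttcctcagtccgttttt
RBMX, spliced: actcaccggCCCAAAAAAAAAAAAACATGg
FAM32A, genome: ctgaaaggcgtcgcagagctgggagtgacc
FAM32A, spliced: gggagtgaccaagcgGAAGAAGAAAAAGAA
TOP2A, spliced: ttgcagcctgTAAATGAAAATAtgcaagtc
SOX4, genome: acttgcctgggaggccgcgagaaacttgca
NSD2, genome: gaacacaacttgttcaatgtgctttatgat

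The 2 tallest members lay in the mRNAs of the poly(A)-binding proteins themselves. The PABPC1 peak had 1477 tags and was the second tallest of the 9 PABPC4 peaks of its gene, after a 3′ UTR peak of 2204 tags. It covered the first part of a 505-nt 5′ UTR, with its centre 448 nt before the start codon. An A-rich stretch began just inside the peak and ran past its 3′ end. The peak in the PABPC4 mRNA had 1216 tags, against 1155 tags for the tallest 3′ UTR peak of the same gene, and these were the only PABPC4 peaks there. Its centre lay 785 nt before the start codon in an 839-nt 5′ UTR, and the next 50 nt held 27 A with a run of 11 A. Both peaks therefore sat near the 5′ end of a long 5′ UTR, at 11.3% of its length in PABPC1 and 6.44% in PABPC4, and in both an A-rich stretch also lay inside the peak. Neither peak sequence had a second place in the genome at 95% or more of identical bases.

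**Figure D1:**
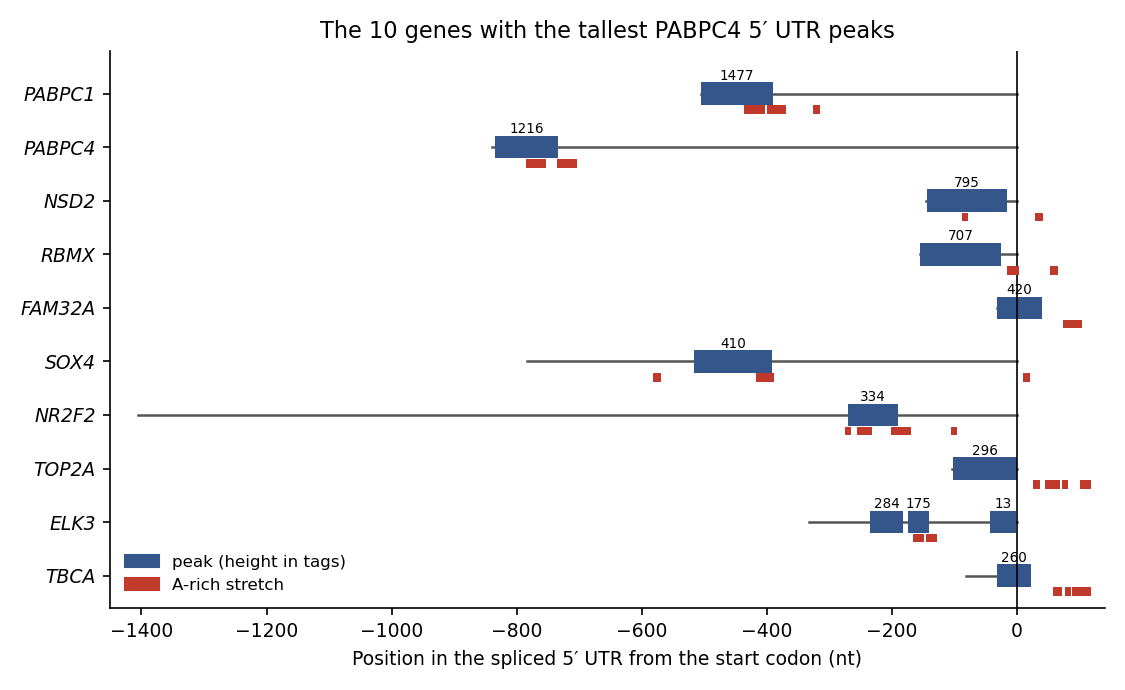
Spliced 5′ UTRs of the 10 genes with the tallest PABPC4 5′ UTR peaks, drawn to scale as the distance in nt from the start codon at 0. Blue boxes are peaks with their height in pooled tags and red boxes are A-rich stretches, drawn to 120 nt into the coding sequence. The PABPC1 and PABPC4 peaks lie at the far 5′ end with A-rich stretches inside and behind them, while the RBMX stretch spans the start codon.

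The next 2 members by height had no A-rich stretch on the genome. The taller, in NSD2, a histone H3 lysine 36 methyltransferase, had 795 tags against 192 for the tallest 3′ UTR peak of the gene. Its 3′ end lay 2 nt from the annotated end of SCARNA22, a small Cajal body RNA in the same place, and the authors listed the peak under both genes. Which RNA gave those tags cannot be told apart. The other, in RBMX, a nuclear RNA-binding protein of the hnRNP G type, had 707 tags against 134 for its tallest 3′ UTR peak. The RBMX peak ended at the end of the first exon, and the second exon brought a run of A next to the start codon.

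The fifth tallest member, in FAM32A, had 420 tags, with its centre 2 nt before the start codon of a 33-nt 5′ UTR. Its tallest 3′ UTR peak had 92 tags. SOX4, a transcription factor of the SRY-related family, had 410 tags at its 5′ UTR peak against 1249 in the 3′ UTR, and NR2F2, a nuclear receptor chosen here after its values were seen, had 334 against 705. TOP2A, DNA topoisomerase II alpha, had 296 tags against 430. The tallest members were thus above the 3′ UTR of their gene in some genes and below it in others.

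Most members were far lower than these. Heights ranged from 5 to 1477 tags with a median of 47.5 and quartiles of 24 and 82, and the median was 49 for the 2237 CDS peaks, 45.5 for the 20052 3′ UTR peaks and 35 for the 38249 intron peaks. The authors' p-value was 0.001 or lower for 260 of the 270 members and at most 0.0269. The median width was 47 nt, with quartiles of 37 and 48 nt. The median width was also 47 nt in the CDS, 3′ UTR and intron peaks. Median height therefore lay close to that of both the CDS and the 3′ UTR peaks, as a description with no test.

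A-rich sequence followed 156 of the 270 members, or 57.8% (95% Wilson interval, 51.8 to 63.5%). The share among all 63507 PABPC4 peaks was 58.5%, so the overall figure does not set the 5′ UTR peaks apart from the list. It was 33.6% of the 3′ UTR peaks, 62.6% of the CDS peaks and 71.2% of the intron peaks. The 5′ UTR share was above that of the 3′ UTR by 24.2 percentage points (Newcombe 95% interval, 18.2 to 30.0; two-sided Fisher's exact test, p = 2.25e-15 after Benjamini-Hochberg adjustment over 6 comparisons). It was below that of introns, with a difference of -13.5 points (-19.4 to -7.70; Fisher's exact test, adjusted p = 5.63e-06). Against the CDS the difference was -4.81 points (-11.1 to 1.28; Fisher's exact test, adjusted p = 0.127) and did not pass the test. Peaks of 1 gene share sequence and are not independent, and these intervals cover counting error only.

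The 5′ UTR and CDS peaks differed in the kind of stretch. An unbroken run of at least 6 A followed 106 members, or 39.3% (33.6 to 45.2%), against 25.2% of CDS peaks (23.4 to 27.0%) and 43.9% of all PABPC4 peaks. With such a run as the only criterion, the difference from the CDS turned to 14.1 points (Fisher's exact test, adjusted p = 2.83e-06). A run of at least 10 A followed 52 members, or 19.3% (15 to 24.4%), against 1.88% of CDS peaks, 7.51% of 3′ UTR peaks, 39.1% of intron peaks and 27.3% of all peaks. A run of at least 15 A followed 30 members, or 11.1% (7.89 to 15.4%), against 0.671% of CDS peaks and 14.7% of all peaks. The members thus lay above the CDS at each of these lengths. The share of the whole list was above their interval at 10 A but inside it at 6 and 15 A, with no test. On the genome, a run of 20 A or more followed 10 members, among them AAK1, BIRC3, HAS2, STAG2 and, named after their values were seen, POGZ and BCL6. The share at this length was not counted over all peaks. In POGZ the run lay outside the exons of the transcript, and no stretch followed the peak in spliced sequence. The POGZ and BCL6 peaks lay in non-canonical transcripts and also in an intron of another transcript. Interrupted A-rich sequence, with 7 A within 10 nt but no run of 6, was found behind 18.5% of members (14.3 to 23.6%) and 37.4% of CDS peaks (35.4 to 39.4%). Over all PABPC4 peaks the share was 14.6%, inside the interval of the members, with no test. The members were thus below the CDS here but not below the whole list.

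**Figure D2:**
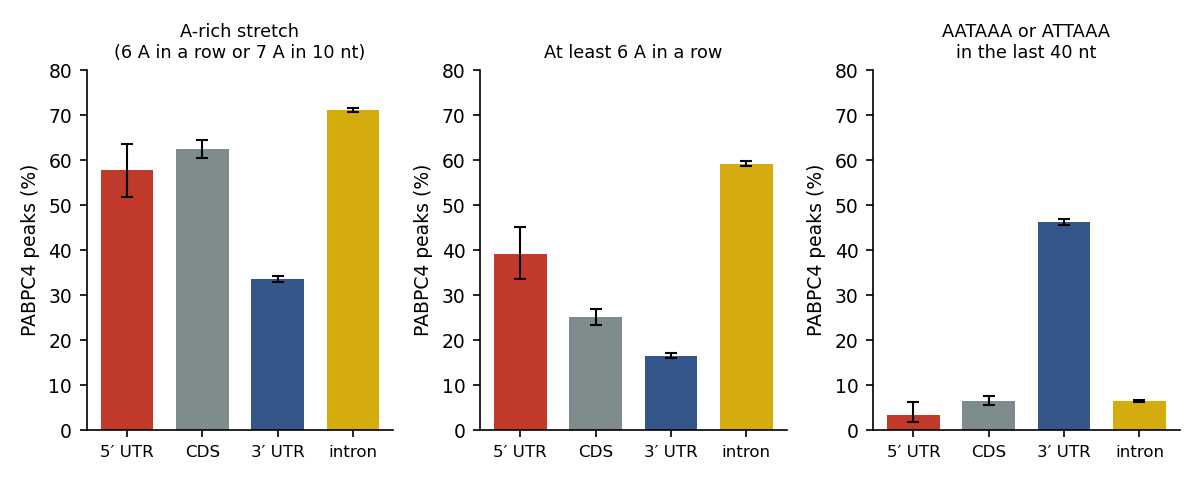
Share of PABPC4 peaks, in percent, with an A-rich stretch, with at least 6 A in a row (both in the 50 nt after the peak) and with AATAAA or ATTAAA in the last 40 nt of the peak window, by annotation class. Bars are shares of 270, 2237, 20052 and 38249 peaks and whiskers are 95% Wilson intervals. The 5′ UTR bar stands at 57.8%, 39.3% and 3.33%.

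The stretch was usually immediate. Of the 156 A-rich members, 95, or 60.9%, had a stretch that held the base after the peak. In 120 the stretch was counted from a base within 10 nt of the peak end. These counts were made for the members only, so they do not set the members apart from other PABPC4 peaks. At the first base after the peak, A stood in 41.11% of members. It stood there in 51.41% of CDS, 50.04% of 3′ UTR and 47.97% of intron peaks. The search began at the peak end, so a stretch that started inside the peak was counted from the base after it. Over all members, A made up 28.2% of bases in the last 20 nt before the peak end, 44.2% in the first 20 nt after it and 25.4% from 51 to 80 nt after it. The highest value was 49.6% 4 nt after the peak. In CDS peaks the rise stood on a higher level, from 35.5% before to 46.1% after the end. In 3′ UTR peaks the averages were 35.2% before and 32.6% after, but these averages hide a narrow rise, with A in 17.3% of peaks at the last base, 45.6% at the second base after the end and 41.5% at the next, and with its highest value, at the first base after the end, slightly above that of the 5′ UTR.

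**Figure D3:**
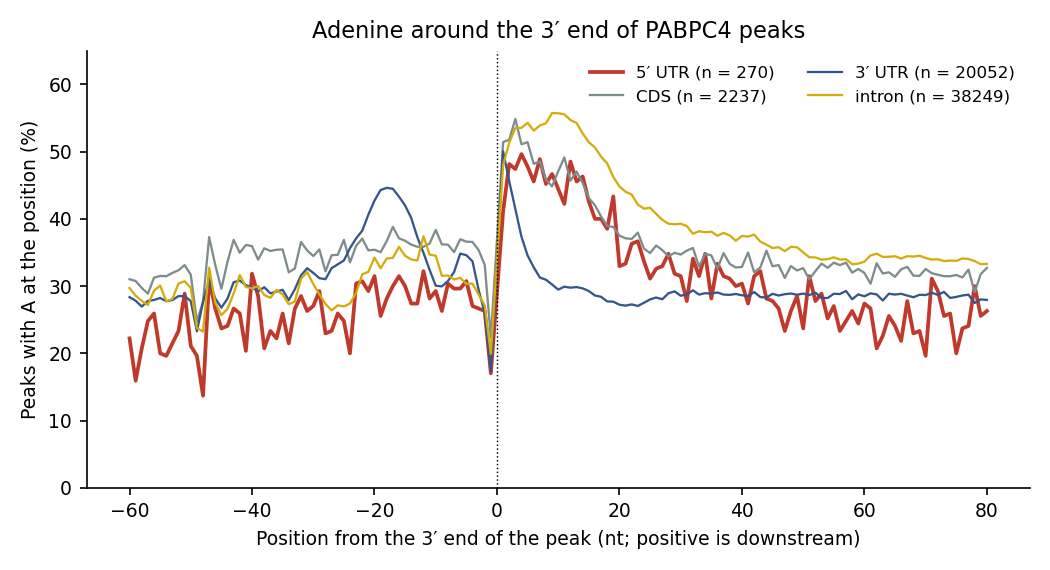
Share of PABPC4 peaks, in percent, with A at each position from 60 nt upstream to 80 nt downstream of the 3′ end of the peak, by annotation class. The 5′ UTR line goes from 28.2% on average over the last 20 nt to 44.2% over the first 20 nt, and the 3′ UTR line has a local maximum upstream of the end and a narrow one at the first base after it.

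The 5′ UTRs that held the members had more positions followed by such a stretch than the 5′ UTRs of all annotated genes. Over every position of the 5′ UTRs of the same 239 transcripts, 19.6% were followed by an A-rich stretch within 50 nt, which compares with 57.8% behind the peaks. Over the 5′ UTRs of all annotated genes the share was 8.45%, and over those of genes with any PABPC4 peak it was 8.24%. These counts are exhaustive and carry no test, because neighbouring positions share their bases. The transcripts were chosen because they hold a peak, and the count includes the positions before the members' own stretches. The 19.6% is therefore not independent of the peaks, and how much of it comes from that choice was not tested.

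The members with most A in the next 50 nt were in STAG2, a cohesin subunit, with 48 A at a peak of 25 tags, and HAS2, a hyaluronan synthase, with 42 A at a peak of 118 tags. TMEM59 had 38 A and 127 tags, ZNF827, a zinc finger protein, 37 A and 113 tags, and KCNJ14, a potassium channel, 37 A and 32 tags. The peak sequences of TMEM59 and KCNJ14 had 19 and 15 further places in the genome, so their origin is uncertain. The STAG2, TMEM59 and KCNJ14 peaks lay in the 5′ UTR of a non-canonical transcript only and also in an intron of another transcript. The STAG2 run of 41 A was the longest among the members. None of these 5 peaks was among the 10 tallest. The peak of HAS2 was the tallest of its gene, at 118 tags against 25 for the tallest 3′ UTR peak, while that of STAG2 was the ninth of 14.

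Where the peak lies close to an exon end, the genome and the mRNA differ in what follows. In spliced sequence 162 members had an A-rich stretch, with a 95% interval of the share from 54.1 to 65.7%. The genomic search missed 15 of these, and 9 with a genomic stretch had none in the spliced mRNA. The 15 included RBMX, FAM32A and TOP2A and, named after their values were seen, TBCA, CYCS and LARS1. TBCA, a tubulin folding cofactor, had 260 tags against 48 in its 3′ UTR, but its peak sequence had 1 further place in the genome. In either form 171 members had a stretch, which is 63.3% (57.4 to 68.9%).

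The remaining 99 members, including NSD2 and SOX4, had none in either form, although in these 2 mRNAs a stretch lay inside or at the end of the peak. Among them, 6 had a stretch in the 50 nt downstream of the peak centre, so inside or near the peak. Stretches upstream of the centre were not looked for, and the one in NSD2, which lay at the centre, was not counted. Of the other 93, 3 lay within 50 nt of an annotated transcript end and 2 had a poly(A) signal. Their heights had a median of 41 tags, against 50 for the A-rich members, with quartiles of 17 and 79 against 28.5 and 80.5. What the tags of these peaks were primed on was not tested.

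Signals of cleavage and polyadenylation were rare in the 5′ UTR. The hexamer AATAAA or ATTAAA stood in the last 40 nt of 9 of 270 members, or 3.33% (1.76 to 6.21%), against 19.4% of all PABPC4 peaks. The share was 46.3% in the 3′ UTR, a difference of -42.9 points (-44.6 to -40.0; Fisher's exact test, adjusted p = 3.36e-56). It was 6.57% in the CDS and 6.40% in introns, and neither difference passed the test (Fisher's exact test, both adjusted p = 0.0528). Searched from 100 nt before the peak to 100 nt after it, both differences passed, at -12.8 points for the CDS and -14.2 points for introns (Fisher's exact test, adjusted p = 1.35e-05 and 8.18e-07). Only 3 members had a signal and no stretch: FAM200B with 63 tags, CSKMT, a methyltransferase of citrate synthase, with 15, and JAK1, a kinase of cytokine receptors, with 14. FAM200B and CSKMT ended 3 nt and 1 nt from an annotated transcript end of their own gene, and 11 members in all ended within 50 nt of an end of their own gene. NSD2 and RPL17 ended that near to the end of a small RNA gene.

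**Figure D4:**
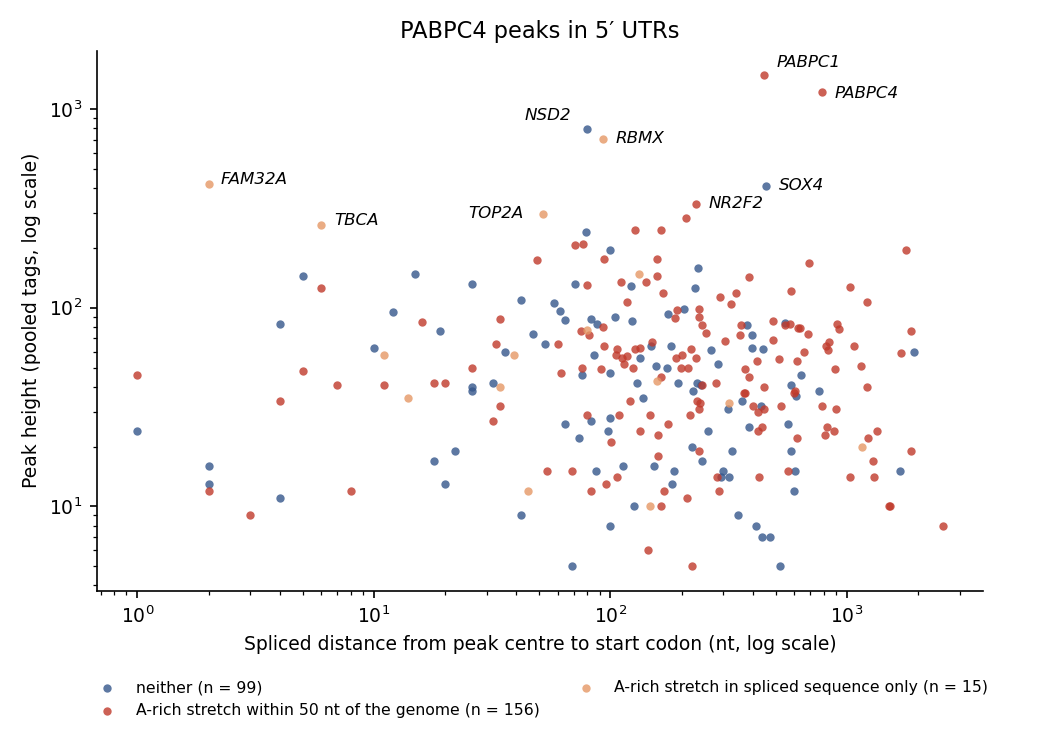
Height in pooled tags against the spliced distance in nt from the peak centre to the start codon, both on log scales, for the 270 members. Colour gives the A-rich stretch: on the genome (156), in spliced sequence only (15) or neither (99). The members within 100 nt of the start codon hold a smaller share of peaks with a genomic stretch than those further away.

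The members were spread over the whole 5′ UTR. Measured in the spliced mRNA, the peak centre lay a median of 184.5 nt before the start codon (quartiles, 80 and 430.75 nt; range, 1 to 2551 nt). As a share of 5′ UTR length the median was 50.9% from the cap end, and 85, 97 and 88 members lay in the first, middle and last part of equal length. The first exon held 214 members, the second 44 and later exons 12. The 5′ UTRs with a member were long, with a median of 431 nt, counted once per member. It was 399 nt for the 174 members in canonical transcripts, against 136 nt over 19441 canonical coding transcripts. A longer 5′ UTR has more positions in which a peak can lie, and the lengths were not adjusted for this.

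By distance to the start codon, the share with an A-rich stretch on the genome was 39.1% of the 46 members at 1 to 50 nt (26.4 to 53.5%), 41.5% of 41 at 51 to 100 nt, 63.0% of 54 at 101 to 200 nt, 59.7% of 72 at 201 to 500 nt and 77.2% of the 57 beyond 500 nt (64.8 to 86.2%). With a stretch on the genome or in spliced sequence counted, the differences were smaller, at 54.3% (40.2 to 67.8%), 48.8%, 68.5%, 61.1% and 78.9% (66.7 to 87.5%) in the same order. Over all 5′ UTR positions of the same transcripts the order was the other way, from 22.9% at 1 to 50 nt to 18.5% beyond 500 nt on the genome and from 26.6% to 18.6% in either form. Members were also nearer to the start codon than pooled positions were. Within 50 nt lay 17% of members but 7.89% of positions, and beyond 500 nt 21.1% of members but 42.4% of positions. A long 5′ UTR gives more positions while each member counts once, and this was not adjusted for. Within their own 5′ UTR the members lay at a median of 50.9% of its length. These shares are descriptions, with no test.

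Some peaks lay on the start codon itself. The nearest centres were at 1 nt in DNMBP, an exchange factor for the GTPase Cdc42, and MKI67, the proliferation antigen Ki-67, with 46 and 24 tags. FAM32A, HEBP2 and TOP2B, the beta form of DNA topoisomerase II, followed at 2 nt with 420, 16 and 13 tags, as did RERE, which the rule left out at equal distance, with 12 tags. The DNMBP and RERE peaks had an A-rich stretch behind them on the genome, FAM32A in spliced sequence only, and MKI67, HEBP2 and TOP2B in neither. In 12 members, CBX1 and TCEAL9 the tallest with 125 and 88 tags, the first A-rich stretch lay in the CDS.

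Several genes held more than 1 member: 207 genes had 1, 24 had 2 and 5 had 3. In ELK3, an ETS transcription factor, the peaks had 284, 175 and 13 tags with centres 209, 158 and 20 nt before the start codon, and the A-rich stretch shown above lay behind the tallest. In SPRY1, an inhibitor of receptor tyrosine kinase signalling, the peaks had 176, 93 and 41 tags, and the first was A-rich only on the genome, beyond the exon. ANKRD28, a subunit of protein phosphatase 6, had peaks of 144, 31 and 25 tags. TCEAL9 had 88, 64 and 50 tags. SYMPK, which encodes symplekin, a scaffold of the 3′ end processing machinery, had 84, 46 and 24 tags, but the sequences of the first and second matched 440 and 870 other places in the genome, so their origin is uncertain. In all, 43 members matched at least 1 other place at 95% or more of identical bases, and among the other 227 the A-rich share was 56.4% (49.9 to 62.7%).

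The 5′ UTR peak was the tallest PABPC4 peak of its gene for 55 of 270 members, or 20.4% (16 to 25.6%), and the only one for 7. Over all peaks of the 12085 genes with an annotated 5′ UTR and any PABPC4 peak the share was 19.3%, close to that of the members. Over all 2394 peaks of the 236 genes with a member, which include the members, it was lower, at 9.98% (8.85 to 11.2%). These differences were not tested. A 3′ UTR peak was found in 204 of the 236 genes, or 86.4%, against 81.3% of those 12085 genes. For the 236 members in those genes the height was a median of 44.2% of that of the tallest 3′ UTR peak, and 59 of them, or 25% (19.9 to 30.9%), were taller. The highest ratio was in AAK1, a kinase of clathrin adaptors, with 247 tags against 27. It was followed by BIRC3, an inhibitor of apoptosis and ubiquitin ligase, with 195 against 26. HES1, a transcriptional repressor induced by Notch, had 173 tags against 27. AMD1, the decarboxylase that supplies polyamine synthesis, had 247 against 64, and HSD17B11, a hydroxysteroid dehydrogenase, 206 against 405. The AAK1 peak ended 16 nt from an annotated end of a transcript of the same gene, and the HES1 peak held a poly(A) signal as well as the A-rich stretch. These 5 genes were named after their values were seen.

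**Figure D5:**
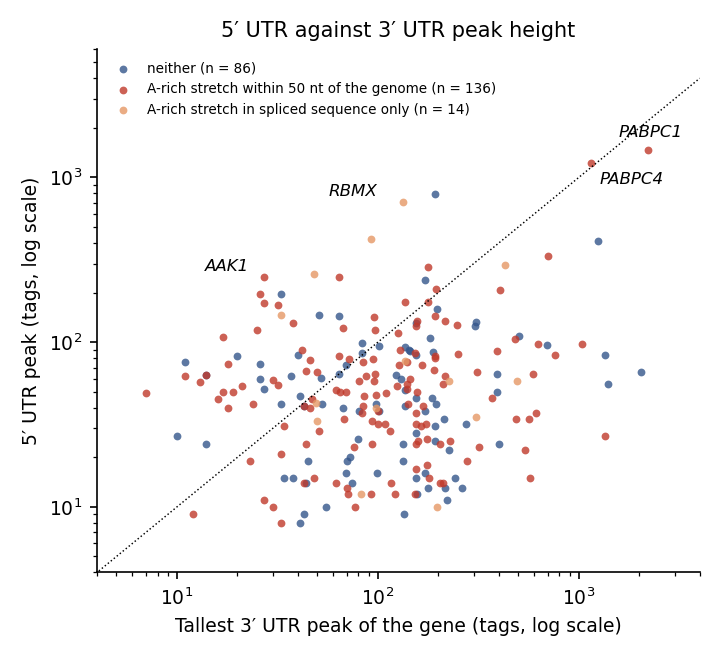
Height of the 5′ UTR peak against that of the tallest 3′ UTR peak of the same gene, in pooled tags on log scales, for the 236 members in genes with a 3′ UTR peak. Colour gives the A-rich stretch and the dotted line marks equal heights; 59 members lie above it.

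Gene groups were counted against the 236 of 12085 genes, or 1.95%, that had a 5′ UTR peak among those with an annotated 5′ UTR and any PABPC4 peak. Of 15 poly(A)-binding proteins and partners with a PABPC4 peak, 2 had one in the 5′ UTR, PABPC1 and PABPC4. Of 50 translation initiation factors, 1 did: EIF2S2, the beta subunit of eIF2, with 90 tags at 105 nt and no A-rich stretch. Of 78 cytosolic ribosomal proteins, 3 did. RPL6 had 75 tags and an A-rich stretch, RPS27L had 35 tags and a stretch in spliced sequence only, and RPL17 had 10 tags, 1 nt from the annotated end of the small nucleolar RNA SNORD58B. None of 13 stress genes with upstream open reading frames and none of 21 genes with a symbol starting HNRNP had a member. In groups of this size that is not set against the background. The HNRNP group went by symbol only, so RBMX, of the hnRNP G type and with a member, was outside it.

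Many 5′ UTR labels depended on the transcript. The member lay in the canonical transcript of its gene for 174 of 270. It also lay in an intron of another transcript for 146 and in a non-coding exon for 97, and 70 were in neither. Among peaks assigned by canonical transcripts alone, which gave 177, the A-rich share was 50.3% and its difference from the CDS was -10.8 points (Fisher's exact test, adjusted p = 0.00673). Whether the tags of the other members came from the 5′ UTR or from an overlapping transcript cannot be told apart.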

How the data were processed

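The data were PAPERCLIP and CLIP peaks from MDA-MB-231 cells. For HNRNPC, the authors collapsed reads by molecular identifiers, trimmed with cutadapt, aligned with BWA 0.7.17 to hg38 and used the CLIP Tool Kit for peak calling. No separate account of the PABPC4 steps was given, and both lists share a layout. The authors pooled both samples per protein. The deposited signal of a peak was its height in unique tags, not scaled to depth; read depth per library is unknown here. The name text deposited with each peak gave its gene, its height expected by chance and the authors' p-value. The list held 69778 entries, of which 6271 repeated a position under another gene.

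Peaks were assigned with GENCODE 44 by their centre. Distances used the canonical transcript where its 5′ UTR held the peak, otherwise the matching transcript of lowest identifier. Sequences came from hg38, and other genomic places from blastn 2.17.0. Shares have 95% Wilson intervals, and differences Newcombe intervals and two-sided Fisher's exact tests (scipy 1.17.1), adjusted over 6 comparisons. The code was tested on simulated data. Named genes were the 5 at the top of each of several rankings (height, A content, nearness to the start codon, signal or no stretch, tallest of the gene), genes with 3 or more members, and list members; others are stated to be chosen later. Members, lists and definitions were chosen with earlier results of these data known. Alternatives changed the stretch, window, height, overlap and annotation.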

Additional observations from a re-analysis of the deposited data

How the results depend on the processing

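No paired analysis was possible because both PABPC4 samples were pooled into 1 list, and for the same reason no sample could be left out. The A-rich differences from 3′ UTR and intron peaks kept direction and call in all alternatives tried, from 7.75 to 31.8 and from -21.6 to -7.55 points. The difference from CDS peaks turned to 14.1 points (Fisher's exact test, adjusted p = 2.83e-06) with a run of 6 A as the only criterion and to 6.09 (0.0581) with 8 A in 10 nt. It passed the test at -10.8 points with canonical transcripts (0.00673), -11.0 without members in an intron of another transcript (0.0259), -8.62 with a 100-nt window (0.00550) and -10.1 from the peak centre (0.00290). The signal difference passed with only members wholly inside the 5′ UTR kept and the other classes unfiltered. It was then -3.83 for the CDS and -3.66 for introns (Fisher's exact test, both adjusted p = 0.0319). It also passed within 100 nt of the peak on either side, at -12.8 (1.35e-05) and -14.2 (8.18e-07). The A-rich share moved to 50.3% with canonical transcripts, 51.6% without overlapped members, 39.3% with the run, 47.0% with 8 in 10, 45.2% in 20 nt and 65.2% in 100 nt. The number of members moved to 163 with heights at or above the list's median, 177 with canonical transcripts and 124 without overlapped members, and the median distance to 141, 147 and, on the genome, 689 nt in place of 184.5. Leaving out members with other genomic places or near transcript ends, chosen after seeing the data, moved no share by more than its interval. The cause was not tested. Low tag counts limit single peaks: the lowest had 5 tags.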

Other observations

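No member overlapped a peak of the 9107 HNRNPC peaks of the same line (0 of 270, which allows a share of up to 1.11% at 3 counts). Overlap was rare in the whole list too, at 94 of 63507 PABPC4 peaks, or 0.148%, so the count does not set the members apart. At the level of genes, 108 of the 236 genes with a 5′ UTR peak, or 45.8% (39.5 to 52.1%), had an HNRNPC peak somewhere, against 3805 of the 12085 genes with an annotated 5′ UTR and any PABPC4 peak, or 31.5%. Gene length and expression were not adjusted for. The 7 members that were the only PABPC4 peak of their gene had 5 to 56 tags, the tallest in CABP1. The largest numbers of other genomic places were 2397 and 1270 for the peaks of ANAPC16, a subunit of the anaphase-promoting complex, with 38 and 58 tags, and 1312 for that of ZCCHC8, with 31 tags.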
